A study of Sus scrofa with 15 samples.

Results

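The core circadian clock was examined in Longissimus muscle, the long back muscle, of 15 young pigs. The list held 8 genes, ARNTL, CLOCK, PER1, PER2, CRY1, CRY2, NR1D1 and DBP. A gene was counted as measured when the gene name or description of a non-control array probe named it. Of the 8 genes, 6 had a probe, with 8 probes among the 43603 non-control probes of the array. PER2 and DBP had no probe by this rule. The CLOCK probe was well above background on 0 of 15 arrays, so 5 genes with 7 probes entered the tests, out of 4555 named genes tested.

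The pigs came from lines of a selection on residual feed intake (RFI), the part of feed intake that growth and body size do not account for. The low_RFI line (RFIneg, n = 7) holds efficient pigs, and the high_RFI line (RFIpl, n = 8) pigs that eat more than predicted. All were fed ad libitum and sampled at 20 kg body weight, with 1 pig per array. The arrays also carry numbers, 1 to 8 (4 low_RFI and 4 high_RFI pigs) and 55 to 62 (3 low_RFI and 4 high_RFI pigs). What the numbers stand for, the hour of sampling and the pigs' age are not given in the sources used here.

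The clock is a feedback loop of transcription that runs with a period of about a day in most cells, skeletal muscle included. CLOCK and ARNTL (also called BMAL1) form the activator that switches on the PER and CRY genes, whose proteins then block that activator. NR1D1 (REV-ERB alpha) is switched on by the same activator and represses ARNTL, so in tissue with a running clock ARNTL transcript peaks at a different time of day from NR1D1 and the PER genes. DBP and NFIL3 compete for the same promoter element, DBP as an activator and NFIL3 as a repressor. With 1 sample per pig, a difference in the hour of sampling and a difference in the amount of transcript cannot be told apart in these data.

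RefSeq's pig gene table (Sscrofa11.1) places ARNTL on chromosome 2 at 45895637-46025174 and CRY2 on the same chromosome at 16587101-16620380. It places PER1 on chromosome 12 at 53361863-53376723, NR1D1 on chromosome 12 at 22263549-22274131 and CRY1 on chromosome 5 at 13275265-13429566. The probes are 60 bases long. The sequences of 2 ARNTL probes are given because the main difference below rests on this gene and was read by separate probes, and the NR1D1 probe because NR1D1 is the direct repressor of ARNTL. The array's annotation starts the ARNTL probes at transcript positions 747 and 1756, and another ARNTL probe, used below as the gene's value, at position 2010.
ARNTL at 747: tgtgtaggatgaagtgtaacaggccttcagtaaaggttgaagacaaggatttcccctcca
ARNTL at 1756: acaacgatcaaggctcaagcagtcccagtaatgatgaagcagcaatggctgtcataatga
NR1D1: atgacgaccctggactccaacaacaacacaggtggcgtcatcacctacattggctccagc

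Probes entered the tests by their background flag, so the flag counts of the tested clock probes are a description. On all 15 arrays 6 of the 7 tested probes were flagged well above background, and the ARNTL probe at position 747 was so on 14. Levels below are log2 processed signal relative to the array's 75th percentile, so a level is read across pigs for 1 gene and not between genes. Between 61.7% and 75.9% of all probes were well above background on arrays 1 to 8, and between 68.2% and 79.5% on arrays 55 to 62. The 75th percentile itself was between 318.7 and 397.4 intensity units on arrays 1 to 8 and between 337.5 and 440.7 on arrays 55 to 62. As a check of the tissue, 11 of 12 muscle fibre markers were tested and their mean level lay between 8.45 and 9.04 in every pig. The labels do not say whether any pigs share a litter.

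ARNTL, the activator subunit, varied most among the clock genes. It was higher in pigs of array numbers 55 to 62 than in those of 1 to 8, and most so in the high_RFI line. Its level in the low_RFI pigs of numbers 1 to 8 was -2.01, -1.73, -1.96 and -1.38 (replicates 1 to 4). The high_RFI pigs of the same numbers stood at -3.09, -2.07, -1.54 and -1.36 (replicates 1 to 4). The low_RFI pigs of numbers 55 to 62 stood at -1.45, -1.54 and -1.10 (replicates 5 to 7), and the high_RFI pigs at -0.48, -0.33, -0.25 and -0.17 (replicates 5 to 8). The last 4 pigs were above all 11 others, whose highest value was -1.10 in low_RFI replicate 7, and high_RFI replicate 1 was the lowest of the 15. From the lowest to the highest pig, ARNTL spanned 7.59-fold.

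The mean ARNTL level was -0.76 ± 0.59 (SD, n = 7) for numbers 55 to 62 and -1.89 ± 0.56 (SD, n = 8) for numbers 1 to 8. With line as a term, the difference was 1.11 ± 0.27 (SE) on the log2 scale, or 2.16-fold (limma, adjusted p = 0.0342 over all tested genes). Pigs of 55 to 62 were higher in 52 of 56 pairs, and an exact permutation test of the 2 groups, two-sided, gave p = 0.00186. ARNTL was the 1 of 5 tested clock genes that passed in this comparison, in which 3.69% of all tested genes passed and 2.26% passed as higher in 55 to 62. An unadjusted p under 0.05 was found for 1 of the 5, against 22.8% of all tested genes. The groups overlapped.

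The call was close to its threshold. It was lost, with differences between 1.04 and 1.14, when low_RFI replicate 3 or 7 or high_RFI replicate 2, 3, 5, 6, 7 or 8 was left out, and it held without any other single pig. Without the lowest pig, high_RFI replicate 1, the difference was 0.88 with a limma adjusted p of 0.0276. With the background re-estimated by normexp it was 0.71 (limma adjusted p = 0.0623).

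**Figure D1:**
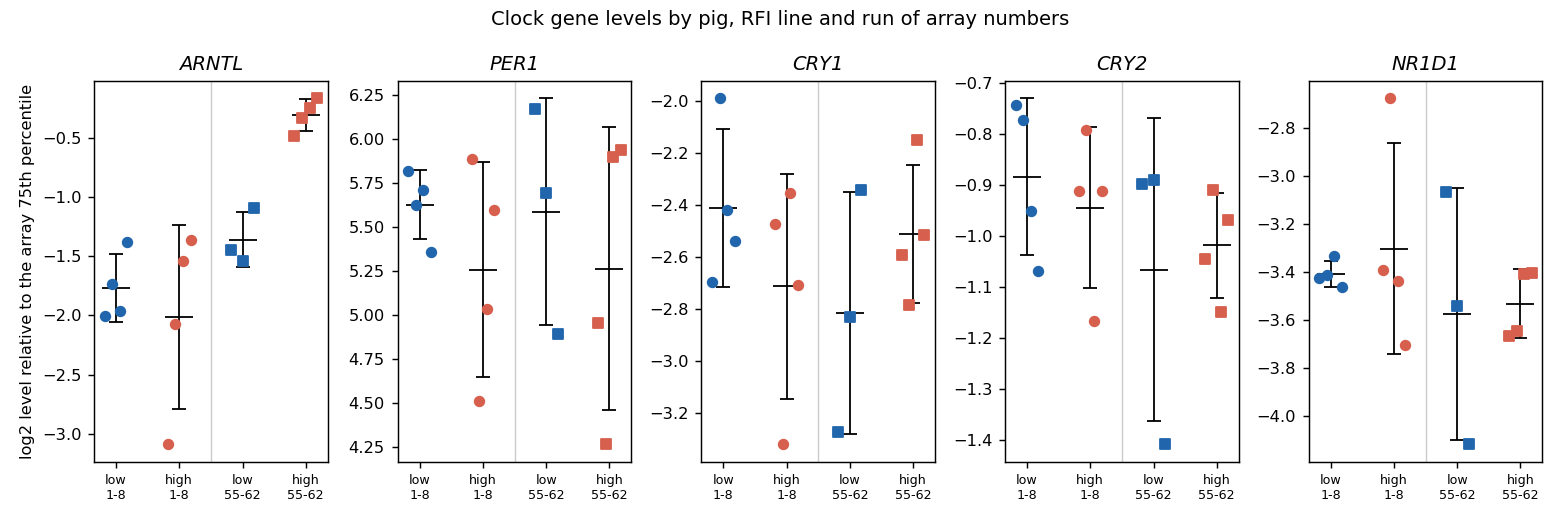
Log2 level, relative to the array's 75th percentile, of the 5 tested clock genes in each pig. Blue is low_RFI and red high_RFI, circles are array numbers 1 to 8 and squares 55 to 62, and bars are the mean and SD of 3 or 4 pigs; the axes differ between genes. ARNTL in the 4 high_RFI pigs of 55 to 62 lies between -0.48 and -0.17, above every other pig, and the other 4 genes overlap between all groups.

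All 3 ARNTL probes gave the same picture. Their differences between the runs of numbers were 1.08 ± 0.33 (position 747), 1.02 ± 0.23 (position 1756) and 1.11 ± 0.27 (position 2010), each on the log2 scale with its SE. The limma adjusted p over 31984 tested probes was 0.09, 0.0375 and 0.0442 in that order. Across the 15 pigs the probes correlated at r = 0.93, 0.95 and 0.99, as a description, since they read the same RNA on the same arrays. The probe at position 747 was lowest in high_RFI replicate 1, at -5.33, where it was not well above background.

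**Figure D2:**
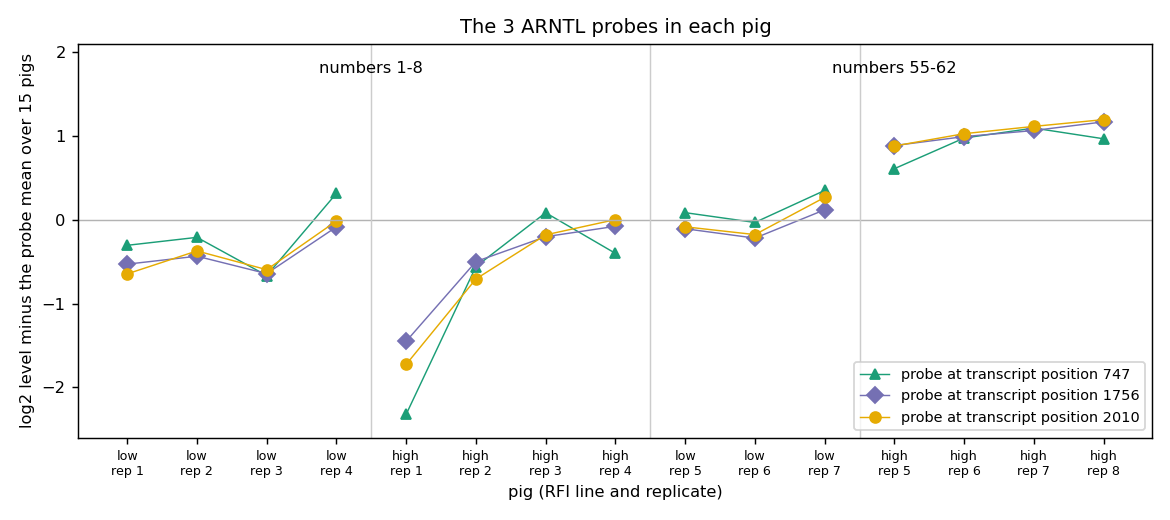
Log2 level of each ARNTL probe minus that probe's mean over 15 pigs, by pig; colours and marker shapes are the 3 probes, and vertical lines separate the groups of line and array numbers. The 3 probes move together, with the 4 high_RFI pigs of 55 to 62 on top and high_RFI replicate 1 at the bottom.

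The hybridisations were spread over 4 slides, each with both lines and both runs of numbers. Within the slides ARNTL was higher in numbers 55 to 62 by 1.48, 1.56, 0.81 and 0.83 on the log2 scale. With slide as a fixed block the difference was 1.10 (limma adjusted p = 0.0359), and with slide as a random block 1.11 (limma adjusted p = 0.0252). The sign was the same in all 4 slides.

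Inside the high_RFI line, ARNTL was 1.71 higher in numbers 55 to 62 (-0.31 ± 0.14, SD, n = 4) than in 1 to 8 (-2.02 ± 0.78, SD, n = 4), without overlap. Inside the low_RFI line it was 0.41 higher (-1.36 ± 0.23, SD, n = 3, against -1.77 ± 0.29, SD, n = 4), with overlap. How many of all tested genes separated without overlap in groups this small was not counted. Seen the other way, low_RFI was 0.25 above high_RFI in numbers 1 to 8 and lower by 1.05 in numbers 55 to 62. Exact permutation tests gave p = 0.0286 for the difference between runs in high_RFI and for that between lines in 55 to 62, the smallest value these group sizes allow, and 0.143 and 0.686 for the other 2. After adjustment over 20 such exact tests of the 5 genes, the smallest value was 0.286. The line by run interaction for ARNTL was -1.30 ± 0.43 (SE), with an unadjusted limma p of 0.00947 and an adjusted p of 0.87. In that test 0 of 4555 genes passed (0%), and 253 genes (5.55%) had an unadjusted p under 0.05, so a difference between the lines in this shift was not shown.

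PER1, the first gene of the repressor arm and also one that glucocorticoids induce, had a wide range but no difference by group. The low_RFI pigs of numbers 1 to 8 stood at 5.81, 5.62, 5.71 and 5.36, and the high_RFI pigs at 5.88, 4.51, 5.03 and 5.59. In numbers 55 to 62 the low_RFI pigs stood at 6.17, 5.69 and 4.89, and the high_RFI pigs at 4.95, 4.26, 5.90 and 5.93. The lines overlapped, and so did the runs; the 4 high_RFI pigs that were alike in ARNTL held the lowest PER1 level of all and 2 of the 3 highest. The difference between runs was -0.02 ± 0.27 (SE; limma adjusted p = 0.976). Low_RFI was 0.35 ± 0.27 above high_RFI (limma adjusted p = 0.886), higher in 34 of 56 pairs.

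CRY1 and CRY2 encode the cryptochromes, which carry most of the repression of the activator. CRY1 levels ran from -3.32 (high_RFI replicate 2) to -1.99 (low_RFI replicate 2), with a median of -2.54. CRY1 differed between runs by -0.08 ± 0.19 and between lines by 0.03 ± 0.18 (log2, SE). CRY2 was the steadiest clock gene, between -1.41 (low_RFI replicate 7) and -0.74 (low_RFI replicate 1), a 1.59-fold span. It differed between runs by -0.12 ± 0.10 and between lines by 0.02 ± 0.10. Neither gene passed either test, with limma adjusted p-values of 0.837 and 0.465 for the runs and 0.999 and 0.998 for the lines.

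NR1D1, the repressor of ARNTL, ran from -4.12 in low_RFI replicate 7 to -2.68 in high_RFI replicate 2, with low_RFI replicate 5 at -3.07 and the other 12 pigs between -3.70 and -3.33. Numbers 55 to 62 averaged -3.55 ± 0.32 (SD, n = 7) and numbers 1 to 8 averaged -3.36 ± 0.30 (SD, n = 8). Their difference, with line as a term, was -0.20 ± 0.16 (SE; limma adjusted p = 0.468), opposite in sign to that of ARNTL and not past the threshold. The lines differed by -0.06 ± 0.16 (SE; limma adjusted p = 0.991). CLOCK was below the tests' limit in every pig, so nothing can be said of the partner of ARNTL.

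By line, 0 of the 5 tested clock genes passed, where 0.022% of all tested genes passed (1 of 4555), and 0 of the 5 had an unadjusted limma p under 0.05, as 7.05% of all tested genes did. The mean ARNTL level of the 7 low_RFI pigs was -1.59 ± 0.33 (SD) and that of the 8 high_RFI pigs -1.16 ± 1.05 (SD), a difference of -0.43 ± 0.38 (SE; limma adjusted p = 0.922). In exact permutation tests over 6435 splits the 5 genes had p-values between 0.244 and 0.89. Of 200 genes given a change of 1 on the log2 scale in data simulated from 4494 genes for the line comparison, 90.5% were called, and 43% of those given a change of 0.5. Those rates are averages over randomly chosen genes of differing spread, with 200 genes changed at once. They do not give the chance of a call for ARNTL or PER1, whose SDs over the 15 pigs were 0.80 and 0.565.

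**Figure D3:**
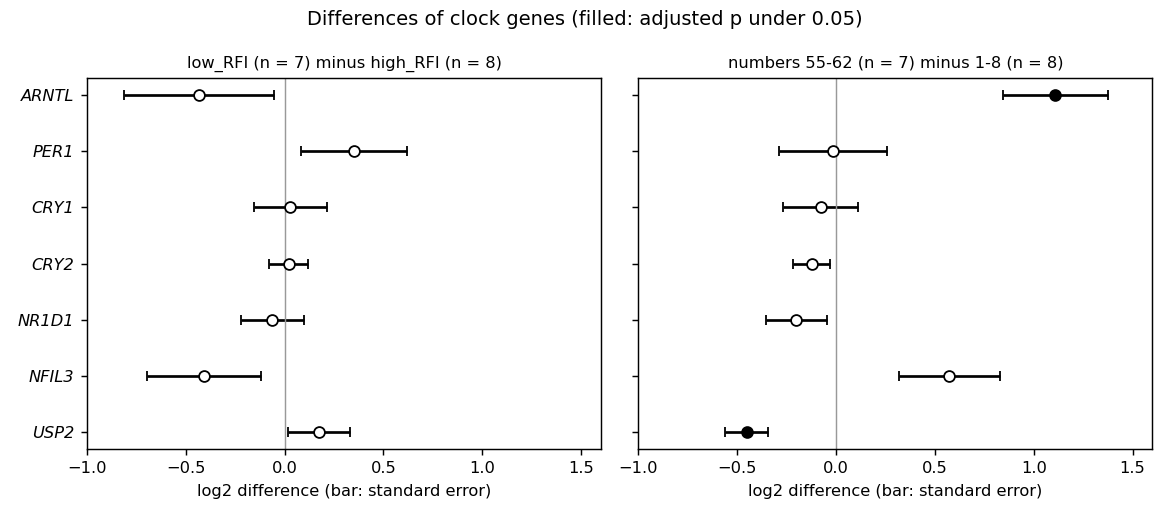
Log2 differences with their standard errors for the 5 tested clock genes and for NFIL3 and USP2, by line (left) and by run of array numbers with line as a term (right). Filled points passed an adjusted p under 0.05: ARNTL at 1.11 and USP2 at -0.45, both between the runs and neither between the lines.

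The order of the pigs differed between the clock genes, as the pigs at the extremes show, and an axis shared by the genes was not tested. Low_RFI replicate 7 had the lowest NR1D1 and CRY2 of all pigs, and the highest ARNTL outside the 4 high_RFI pigs of numbers 55 to 62. High_RFI replicate 2 had the highest NR1D1 and the lowest CRY1, with the next-to-lowest ARNTL and PER1. High_RFI replicate 1 had the lowest ARNTL of all but an NR1D1 level of -3.39, near the median of -3.43. Low_RFI replicate 5 had the highest PER1 and the next-to-highest NR1D1, with the next-to-lowest CRY1.

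Relations between the 5 genes were computed for 10 pairs over the 15 pigs, with two-sided permutation tests and adjustment over the 10. ARNTL and its repressor NR1D1 had r = -0.35 (permutation p = 0.195, adjusted 0.391) and rho = -0.46 (permutation p = 0.0828, adjusted 0.207). Without the 2 pigs farthest from the median of ARNTL, r was -0.47. Within numbers 1 to 8 it was -0.30 (exact permutation p = 0.328) and within 55 to 62 it was -0.06 (exact permutation p = 0.892). By ranks the pigs of 1 to 8 had rho = -0.83 (exact permutation p = 0.0154, 0.154 after adjustment over the 10 pairs) and those of 55 to 62 rho = 0.14 (exact permutation p = 0.783). None of these values passed the adjustment. With the background re-estimated by normexp, r of ARNTL and NR1D1 over the 15 pigs was 0.09.

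PER1 and NR1D1, both targets of the activator, had r = 0.12 (permutation p = 0.657, adjusted 0.657) and rho = 0.52 (permutation p = 0.0461, adjusted 0.203). Without the 2 pigs farthest from the median of PER1 r was 0.74, and within numbers 1 to 8 and 55 to 62 it was -0.72 and 0.72 (exact permutation p = 0.0894 and 0.0605). By ranks the values were 0.12 and 0.89 (exact permutation p = 0.793 and 0.0123, or 0.933 and 0.0615 after adjustment), so the negative r in 1 to 8 was not seen in the ranks. High_RFI replicate 2, with the highest NR1D1 and next-to-lowest PER1, stood apart from the rest. CRY2 and NR1D1 had the largest r, 0.59 (permutation p = 0.0269, adjusted 0.236), with rho = 0.32 (permutation p = 0.241, adjusted 0.483). That r was 0.33 without the 2 pigs farthest from the median of CRY2, 0.32 within 1 to 8 and 0.72 within 55 to 62 (exact permutation p = 0.447 and 0.0909), with rho of 0.24 and 0.50 (exact permutation p = 0.582 and 0.267).

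CRY1 and NR1D1 had r = -0.52 (permutation p = 0.0471, adjusted 0.236) but rho = -0.09 (permutation p = 0.754, adjusted 0.838), and r = 0.17 without the 2 pigs farthest from the median of CRY1, so that relation rests on those pigs. In the main processing 5 of the 10 pairs had a positive and 5 a negative r, and 0 passed the adjustment. Inside the high_RFI line CRY1 and CRY2 were inversely related, with r = -0.85 and rho = -0.88 (exact permutation p = 0.00494 and 0.00724; 0.0494 for r after adjustment over 10 pairs). Inside low_RFI that r was -0.15 (exact permutation p = 0.704). Over all 50 values of r, of 10 pairs in all pigs, each line and each run, the smallest adjusted permutation p was 0.208.

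**Figure D4:**
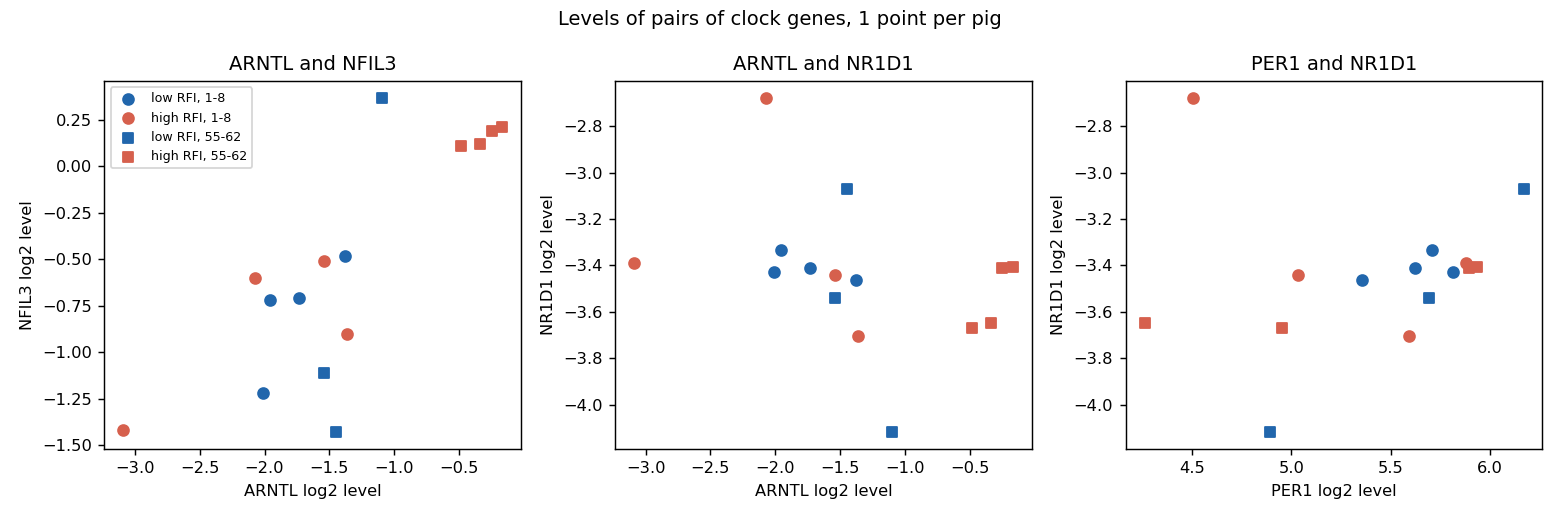
Log2 levels of ARNTL against NFIL3, ARNTL against NR1D1 and PER1 against NR1D1, 1 point per pig; blue is low_RFI, red high_RFI, circles array numbers 1 to 8 and squares 55 to 62. ARNTL and NFIL3 rise together (r = 0.80), while ARNTL and NR1D1 scatter (r = -0.35) and PER1 and NR1D1 line up in most pigs but not in high_RFI replicate 2 (top left).

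Beyond the core, 41 other clock genes were listed, of which 20 had a probe that could be named for them and 19 were tested. By line 0 of the 19 passed in limma, and 0 had an unadjusted p under 0.05. Between the runs 1 of 19 passed, the deubiquitinase USP2, which acts on clock proteins, a count near the background, in which 3.69% of all tested genes passed and 1.43% passed as lower. An unadjusted limma p under 0.05 was found for 4 of 19, against 22.8% of all tested genes. The difference was negative in 15 of 19, against 58.5% of all tested genes (median -0.15, against -0.04). USP2 was lower in numbers 55 to 62 (3.27 ± 0.21, SD, n = 7) than in 1 to 8 (3.73 ± 0.22, SD, n = 8), by -0.45 ± 0.11 on the log2 scale (SE; limma adjusted p = 0.0356), with 4 of 56 pairs going the other way. That call was lost without low_RFI replicate 2, 3, 4, 6 or 7 or high_RFI replicate 1, 4, 7 or 8, at differences between -0.47 and -0.38, and with normexp background correction (-0.39, limma adjusted p = 0.121). KDM5A, a histone demethylase that coactivates the loop, had -0.17 ± 0.07 and the kinase GSK3B -0.27 ± 0.12 (limma adjusted p = 0.158 and 0.193). By line the smallest p-values were those of KDM5A (0.12 ± 0.08), EP300 (0.12 ± 0.09), NFIL3 (-0.41 ± 0.29) and CUL1 (-0.12 ± 0.09), with limma adjusted p-values between 0.86 and 0.885.

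NFIL3, the repressor that opposes DBP, followed ARNTL most closely among the 19. In the 4 high_RFI pigs of numbers 55 to 62 it stood at 0.11, 0.12, 0.19 and 0.21, and low_RFI replicate 7 had the highest level, 0.37. The other 10 pigs lay between -1.43 and -0.48, so these 5 pigs, which were also the 5 highest in ARNTL, stood apart from the rest. Between the runs NFIL3 differed by 0.57 ± 0.26 (SE; limma adjusted p = 0.198). Over the 15 pigs ARNTL and NFIL3 had r = 0.80 (permutation p = 0.00041, 0.00779 after adjustment over the 19 genes) and rho = 0.72 (permutation p = 0.0034, adjusted 0.0323). That r was 0.73 without the 2 pigs farthest from the median of ARNTL. Within numbers 1 to 8 it was 0.74 (exact permutation p = 0.0322, adjusted 0.612) and within 55 to 62 it was 0.79 (exact permutation p = 0.0421, adjusted 0.4), with rho of 0.48 and 0.61 (exact permutation p = 0.243 and 0.167).

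Of the other 18 genes, RORB, a receptor of the family that activates ARNTL, and USP2 each had r = -0.72 with ARNTL over all pigs (permutation p = 0.00233 and 0.00237, both 0.015 after adjustment). Their rho with ARNTL was -0.72 and -0.69 (permutation p = 0.00337 and 0.00593). Without the 2 farthest pigs r was -0.70 and -0.60. After removing the means of line and run it was -0.60 for RORB and -0.31 for USP2. The permutation over all pigs makes no allowance for the runs, between which ARNTL and USP2 both passed. Within numbers 1 to 8 r was -0.44 for RORB and -0.29 for USP2, and within 55 to 62 it was -0.86 and -0.51 (exact permutation p between 0.0238 and 0.509; the smallest was 0.4 after adjustment). The RORB probe itself spanned only -3.34 to -2.75.

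**Figure D5:**
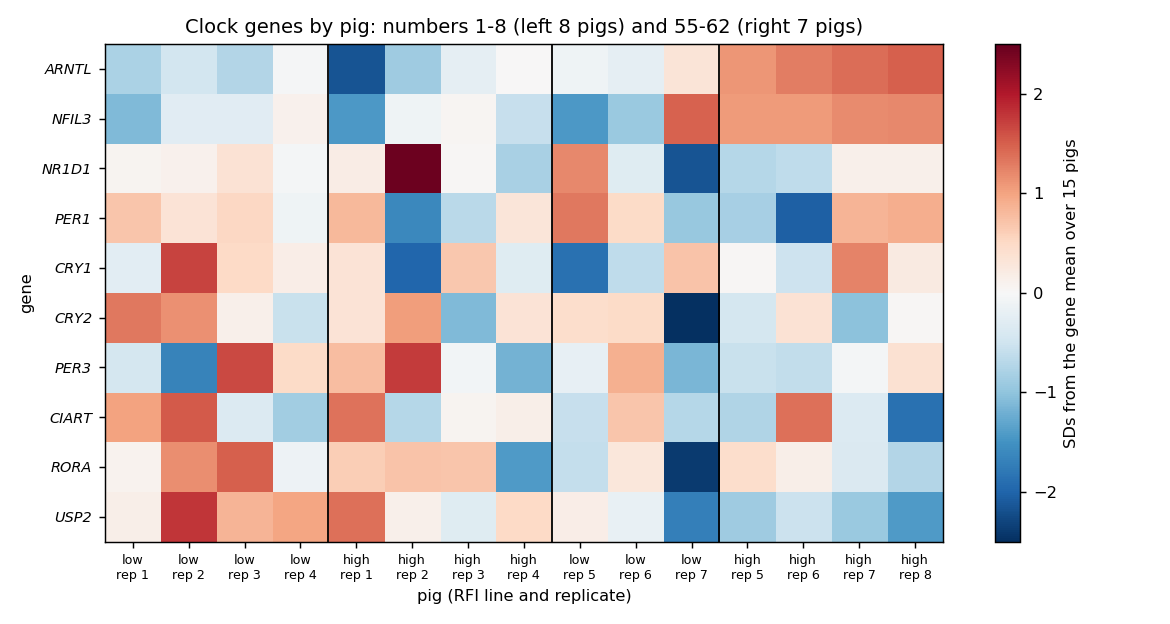
Level of 10 clock genes in each pig, in SDs from the gene's mean over 15 pigs (red above, blue below); columns are pigs, numbers 1 to 8 on the left and 55 to 62 on the right, and lines separate the groups. ARNTL and NFIL3 are red in all 4 high_RFI pigs of 55 to 62, and low_RFI replicate 7 is the lowest pig in NR1D1, CRY2, RORA and USP2.

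By the level in each pig after removing the means of line and run, the genes most like ARNTL among 4494 were AS3MT (r = 0.83), MEGF9 (0.82) and BICD1 (0.81), and among the most opposite were AAR2 (-0.85) and CPB1 (-0.81), over 15 pigs. For PER1 they were NLN (0.88), GADD45G (0.77) and ANKZF1 (0.76), and OSBPL6 (-0.82), EPB41L4B (-0.81) and CNOT9 (-0.78). For CRY1 they were NUP153 (0.87), RFC4 (0.86) and PRPF4B (0.86), and FSHB (-0.89), ZNF148 (-0.82) and GRK7 (-0.80). For CRY2 they were SLC24A2 (0.91), HADHA (0.84) and SLC5A5 (0.83), and SEPHS2 (-0.84), APEX1 (-0.82) and PSMB3 (-0.81). For NR1D1 they were CYP1A1 (0.90), ACACB (0.86) and ENO3 (0.84), and GON4L (-0.85), CLSTN3 (-0.83) and CCND2 (-0.79). These are the extremes of a search through 4494 genes over 15 pigs, and no test was made. The named genes are therefore not shown to be related to the clock genes. No clock gene was among those named; on this measure NFIL3 ranked 12 of 4493 for ARNTL, with r = 0.69.

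Muscle genes known to follow the clock did not pass either test, with 0 of 13 by line and 0 of 13 between the runs in limma, against 0.022% and 3.69% of all tested genes. An unadjusted p under 0.05 was found for 2 of 13 in each, against 7.05% and 22.8% of all tested genes. By line the smallest p-values were those of CPT1B, which carries fatty acids into mitochondria (-0.53 ± 0.11, limma adjusted p = 0.232), and MYOD1, the myogenic factor that ARNTL and CLOCK switch on (-0.54 ± 0.17, limma adjusted p = 0.48). WEE1, a cell cycle kinase, and UCP3, a mitochondrial carrier, had 0.65 ± 0.35 and -0.45 ± 0.33 (limma adjusted p = 0.776 and 0.885). CPT1B was lower in low_RFI in all but 1 of 56 pairs. Between the runs FBXO32, a ubiquitin ligase of muscle protein breakdown, had 0.97 ± 0.31 (limma adjusted p = 0.0842) and TFRC, the transferrin receptor, 0.77 ± 0.36 (limma adjusted p = 0.216). VEGFA and WEE1 had 0.22 ± 0.15 and 0.49 ± 0.34 (limma adjusted p = 0.415 and 0.418).

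Immediate-early and glucocorticoid-induced genes, which respond to handling and stress, were set beside PER1. Of 17 immediate-early genes 0 passed by line and 0 between the runs in limma, and 1 and 3 had an unadjusted p under 0.05, against 7.05% and 22.8% of all tested genes. By line ATF3 (1.50 ± 0.50), CYR61 (0.73 ± 0.36), BTG2 (0.80 ± 0.42) and JUN (0.55 ± 0.29) had limma adjusted p-values between 0.523 and 0.763. Between the runs JUN (0.62 ± 0.25), KLF6 (0.40 ± 0.17), EGR1 (0.93 ± 0.43) and IER3 (-0.49 ± 0.23) had values between 0.166 and 0.227. Their part in the levels of PER1 was not tested.

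Of 13 glucocorticoid-induced genes, PER1 among them, 0 passed by line (0 at an unadjusted p under 0.05) and 2 passed between the runs (3.69% of all tested genes), both lower in numbers 55 to 62, a direction in which 1.43% of all tested genes passed. An unadjusted limma p under 0.05 between the runs was found for 6 of the 13, against 22.8% of all tested genes. The list had no common direction, with 6 genes higher and 7 lower in 55 to 62. FOXO3, a transcription factor of muscle wasting, fell by 0.49 (limma adjusted p = 0.0294), and GLUL, glutamine synthetase, by 0.58 (limma adjusted p = 0.041). Only 0 or 1 gene of this list passed without any single pig other than low_RFI replicate 1 or high_RFI replicate 5. CEBPD (0.62 ± 0.23) and TSC22D3 (0.35 ± 0.13) were on the other side and not past the threshold (limma adjusted p = 0.122 and 0.132). By line DDIT4 (-0.30 ± 0.18), FOXO1 (0.18 ± 0.13), PER1 and CEBPD (0.26 ± 0.27) had the smallest p-values, with limma adjusted p-values between 0.818 and 0.947.

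A leukocyte marker also moved with the array numbers. PTPRC, the common leukocyte antigen, was 1.52 ± 0.30 higher in 55 to 62 (limma adjusted p = 0.0165), without overlap between the runs, as for 1.03% of all tested genes. All 4 tested leukocyte markers of 5 listed had a positive difference and 1 passed, where 2.26% of all tested genes passed as higher. CD3E had 0.87 ± 0.32, CD163 0.45 ± 0.26 and CD14 only 0.07 ± 0.18 (limma adjusted p = 0.125, 0.328 and 0.853). The summed level of the 4 markers was between 1.08 and 1.97 in numbers 1 to 8 and between 1.30 and 2.95 in 55 to 62. No tested marker of fat, endothelium, fibroblasts or red cells passed between the runs, and by line 0 of these marker genes passed. Of the 11 tested muscle fibre markers 0 passed between the runs, and 9 were lower in 55 to 62, against 58.5% of all tested genes. An unadjusted limma p under 0.05 was found for 4 of the 11, against 22.8% of all tested genes. The part of these cells in the ARNTL difference was not tested, and in whole muscle a change in the number of cells of a type and a change in RNA per cell cannot be told apart.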

How the data were processed

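Total RNA of 15 pigs was measured on 1-colour Agilent arrays; per the labels, 150 ng per sample was labelled with Cy3. Per the file headers, the intensity values were read by Feature Extraction software, version 10.7.3.1 with protocol GE1_107_Sep09, background-subtracted and not normalized between arrays, and R 2.10.0 is named in the submitters' processing notes. The deposited table holds the authors' log2 values, found here to be log2 processed signal minus the array median over 29364 spots, and served as an alternative. Other columns of flags, per the file headers, gave spots well above background or non-uniform.

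Control and non-uniform spots were left out, spots of 1 probe averaged, and the level taken as log2 processed signal after subtracting the 75th percentile of each array. Tested probes were well above background on at least 7 arrays with at least 4 values per line (31984 of 43603). A gene took its tested probe of highest mean level. Of the 43603 non-control probes, 31384 could not be given a single gene name. A listed gene without a named probe is therefore not shown to be absent from the array. PER1, CRY1, CRY2 and CLOCK were matched by probe description, ARNTL and NR1D1 by gene name. Lines, and array numbers 55 to 62 against 1 to 8 with line as a term, were compared in two-sided tests with limma 3.58.1 (R 4.3.3), with Benjamini-Hochberg adjustment over all tested genes and calls under 0.05. The fit was tested on simulated data. Where nothing says that samples of a line are unrelated pigs, p-values measure only the spread between these samples, and the number of arrays limits the precision.

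Members and gene lists were chosen with earlier results of these data known. From each list the 4 genes of smallest p per comparison are named, and per clock gene the 3 most and 3 least alike; 1 such gene and 1 marker list are not reported here. The replicate numbers were not taken to pair the lines, since 2 of 7 same-numbered pairs of pigs had a correlation of deviations under 0.1.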

Additional observations from a re-analysis of the deposited data

Results flagged for a closer look

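Within each line, the highest and lowest pig were compared with the nearest other pig for 31 clock and listed genes, which make 62 groups. Groups with a missing value were skipped, namely KLF6 and CYR61 in both lines and BTG2 in high_RFI. Among the groups examined, 4 held a pig whose gap to the next exceeded Dixon's 95% critical value. Chance flags about 1 in 20 groups. Among the clock genes, NR1D1 in high_RFI replicate 2 was at -2.68, against -3.39 in the next pig of 8, a gap of 0.70 of the line's range. FOXO1 in high_RFI replicate 3 was at 3.1, against 2.70 in the next pig. UCP3 in high_RFI replicate 7 was at 3.63, below 4.58 in the next pig. WEE1 in low_RFI replicate 5 was at -2.35, against -4.40 in the next pig of 7.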

How the results depend on the processing

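By line, 0 clock genes passed in all 29 alternatives, and ARNTL stayed negative and PER1 positive in each. Between the runs of array numbers, ARNTL passed in 19 of 28 alternatives. With normexp background correction 0 clock genes passed and ARNTL was at 0.71. Leaving out 1 pig gave 0 to 1 clock genes and ARNTL differences of 0.88 to 1.22. The cause of the lost calls was not tested. Small differences that never passed changed sign: CRY1 by line was -0.12 with normexp, -0.03 with array weights and -0.01 with slide as a fixed block, CRY2 by line -0.03 with normexp, and PER1 between runs 0.05 with normexp and 0.05 with array weights. Without 1 pig, CRY1 by line ranged from -0.07 to 0.14, CRY2 by line from -0.02 to 0.09, NR1D1 by line from -0.13 to 0.04, PER1 between runs from -0.14 to 0.15 and CRY1 between runs from -0.20 to 0.05. Of the 10 pairs, 2 passed with normexp (CRY1 and NR1D1 at 0.68, CRY2 and NR1D1 at 0.70) and 1 without the 2 farthest pigs (PER1 and NR1D1 at 0.74). With normexp r turned to 0.09 for ARNTL and NR1D1 and to 0.24 for CRY1 and CRY2. Without the 2 farthest pigs it turned to -0.34 for PER1 and CRY1 and to 0.17 for CRY1 and NR1D1. Without 1 pig, r ranged from -0.10 to 0.45 for PER1 and CRY1 and from -0.04 to 0.66 for PER1 and NR1D1. Over all genes, 65 passed between the runs with normexp, 335 with array weights, 306 with slide as a fixed block, 292 with it as a random block and 77 to 234 without 1 pig, against 168. The glucocorticoid-induced genes that passed numbered 0 to 3 over the alternatives.

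With the replicate number as a block in the line comparison, 0 clock genes passed and ARNTL was at -0.29. Same-numbered pigs correlated between -0.028 and 0.309, and only replicate 3 was closest to its own number. No paired analysis was possible for the runs because the replicate number determines the run.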
